A study of Mus musculus with 4 samples.

Results

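RNA of 10 genes of insulin signalling and glucose uptake was described in the tibialis anterior (TA), the fast-twitch muscle along the shin. They were taken by gene name, as Insr, Irs1, Irs2, Pik3r1, Akt1, Akt2, Mtor, Rptor, Slc2a4 and Tbc1d4, and each name matched 1 of the 57180 genes in the table. The study asked how treadmill running affects the growth of adolescent skeletal muscle. Wild-type C57BL/6J mice, described as male, entered the study at 3 weeks of age and gave their muscles at 8 weeks. The control group (2 libraries) stayed sedentary, and the exercise group (2 libraries) ran for 4 weeks at 12 m/min, 45 min per session and 5 sessions per week, after 5 days of familiarization on the treadmill. The labels name no transgene or drug for either group. Whether a library held 1 mouse or several was not stated, so that each p-value here reflects variation among these libraries, which may be technical.

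Insulin binds its receptor on the fibre surface, the receptor phosphorylates docking proteins named insulin receptor substrates, and these recruit phosphoinositide 3-kinase (PI3K). The lipid that PI3K makes brings the kinase AKT to the membrane, where it is activated. One branch then releases vesicles with the glucose transporter GLUT4, encoded by Slc2a4, to the cell surface, by inhibition of the GTPase-activating protein AS160, encoded by Tbc1d4. Another branch activates mTOR complex 1, in which raptor, encoded by Rptor, presents substrates to the mTOR kinase, and so raises protein synthesis. Muscle contraction moves GLUT4 to the surface by a separate route, and skeletal muscle is the main site of glucose uptake after a meal. RNA levels say nothing of phosphorylation or of the position of GLUT4 in the cell.

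The libraries of the groups differed in sex-linked RNA. Xist, expressed from the inactive X of female cells, was at 14.9 and 11.7 TPM in the control libraries and at 0 and 0.07 TPM in the exercise libraries. The Y-linked Eif2s3y was at 0.30 and 0 TPM against 16.7 and 25.2 TPM, and Ddx3y, also Y-linked, at 10.04 and 12.06 TPM against 41.18 and 37.63 TPM. Xist in both control libraries goes against the description of the mice as male, and differences of sex and of running cannot be told apart in any result that follows.

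Slc2a4 was the gene of the 10 that fell most, and Akt1 the one that rose most. Slc2a4 went from 147 ± 13.4 TPM in control to 66.2 ± 8.29 TPM in exercise libraries, and Akt1 from 59.3 ± 6.44 to 142 ± 14.9 TPM (mean ± SD, n = 2 each; TPM is a transcript level per length, scaled so that every library has the same total). In all, 3 of the 10 genes were called higher (Akt1, Mtor and Rptor) and 1 lower (Slc2a4). Among all 13288 genes tested, 55.3% were called higher and 6.19% lower (limma, adjusted p under 0.05). The count of 3 called higher is thus a smaller share than the background, and 1 of 10 called lower is near it. On the log2(TPM + 1) scale, which understates changes of low genes, the 10 genes had a median log2 fold change of 0.04, and the 13288 genes one of 0.53. Only Akt1, Mtor and Rptor lay above the median of all genes.

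Scaling decided most of the calls on these genes, so each gene is given under 2 scalings. Median-of-ratios scaling, which divides each library by the median ratio of its genes to their means, brought the median of all genes to 0.00. Of all calls, 89.9% were higher on TPM as deposited, 38.5% after this scaling, 55.6% after quantile normalization and 69.5% after rescaling without the 50 highest genes. After median-of-ratios scaling 1 of the 10 genes was called higher (Akt1) and 6 lower (Insr, Irs1, Irs2, Pik3r1, Slc2a4 and Tbc1d4), against 10.6% higher and 16.8% lower among all genes tested. A fit without 1 library leaves 1 in its group. The spread within a gene then comes from the 2 libraries of the other group and is assumed to be alike. As in every fit, limma draws it toward the spread over all genes. Without exercise replicate 1, and likewise without exercise replicate 2, Slc2a4 was the one call left after that scaling. Without control replicate 1, and likewise without control replicate 2, the genes called lower were Pik3r1, Slc2a4 and Tbc1d4. Slc2a4 was called lower, and Akt1 higher, under each of the 12 alternatives tried, other scalings and left-out libraries included, with log2 fold changes from -1.77 to -1.02 and from 0.62 to 1.36.

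**Figure D1:**
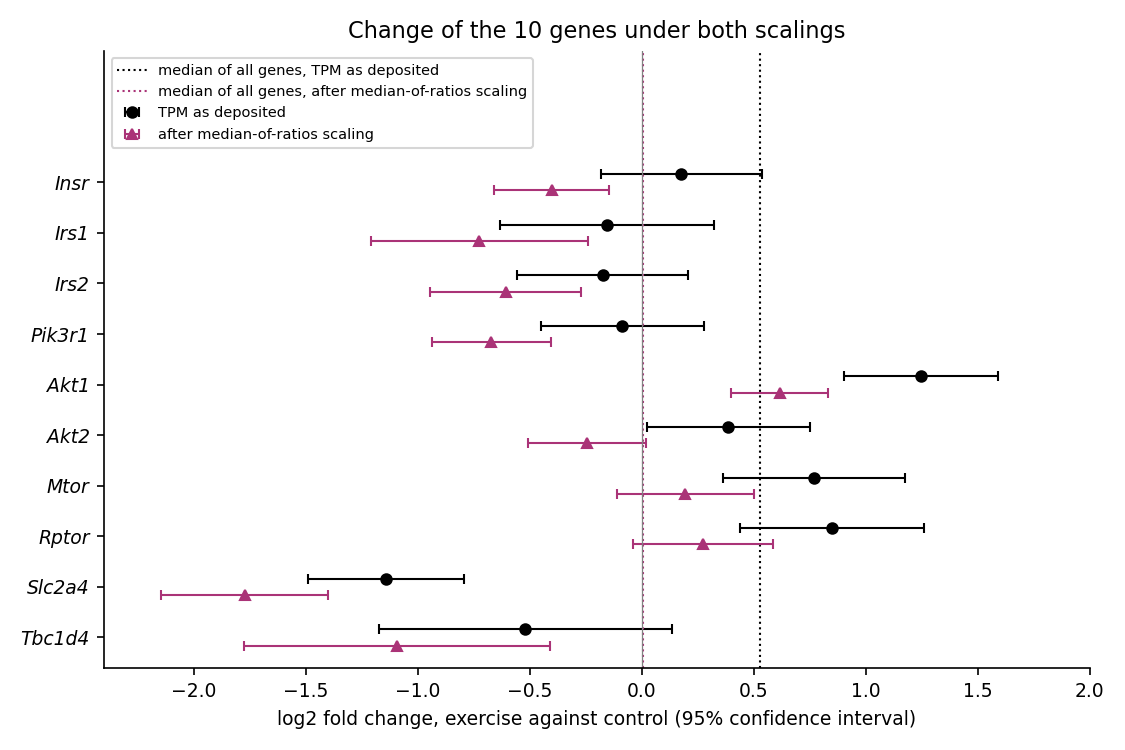
Log2 fold change (exercise against control, of log2(TPM + 1)) of the 10 genes with 95% confidence intervals from limma, on TPM as deposited (circles) and after median-of-ratios scaling (triangles); dotted lines are the medians of all 13288 genes tested. Slc2a4 lies at -1.14 and -1.77 and Akt1 at 1.25 and 0.62, and the intervals of Insr, Irs1, Irs2, Pik3r1 and Tbc1d4 include 0 on TPM as deposited and lie below it after scaling.

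In the control libraries Slc2a4 had the highest level per length of the 10, followed by Akt2 and Akt1, in each of them. In both exercise libraries the order of these 3 was Akt1, Akt2 and Slc2a4. Insr, Irs1, Pik3r1, Tbc1d4, Mtor and Rptor stood between 6.17 and 16.2 TPM in every library, and most neighbours in that range overlapped between libraries. Irs2 was the lowest of the 10 in each library, between 1.86 and 2.35 TPM.

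**Figure D2:**
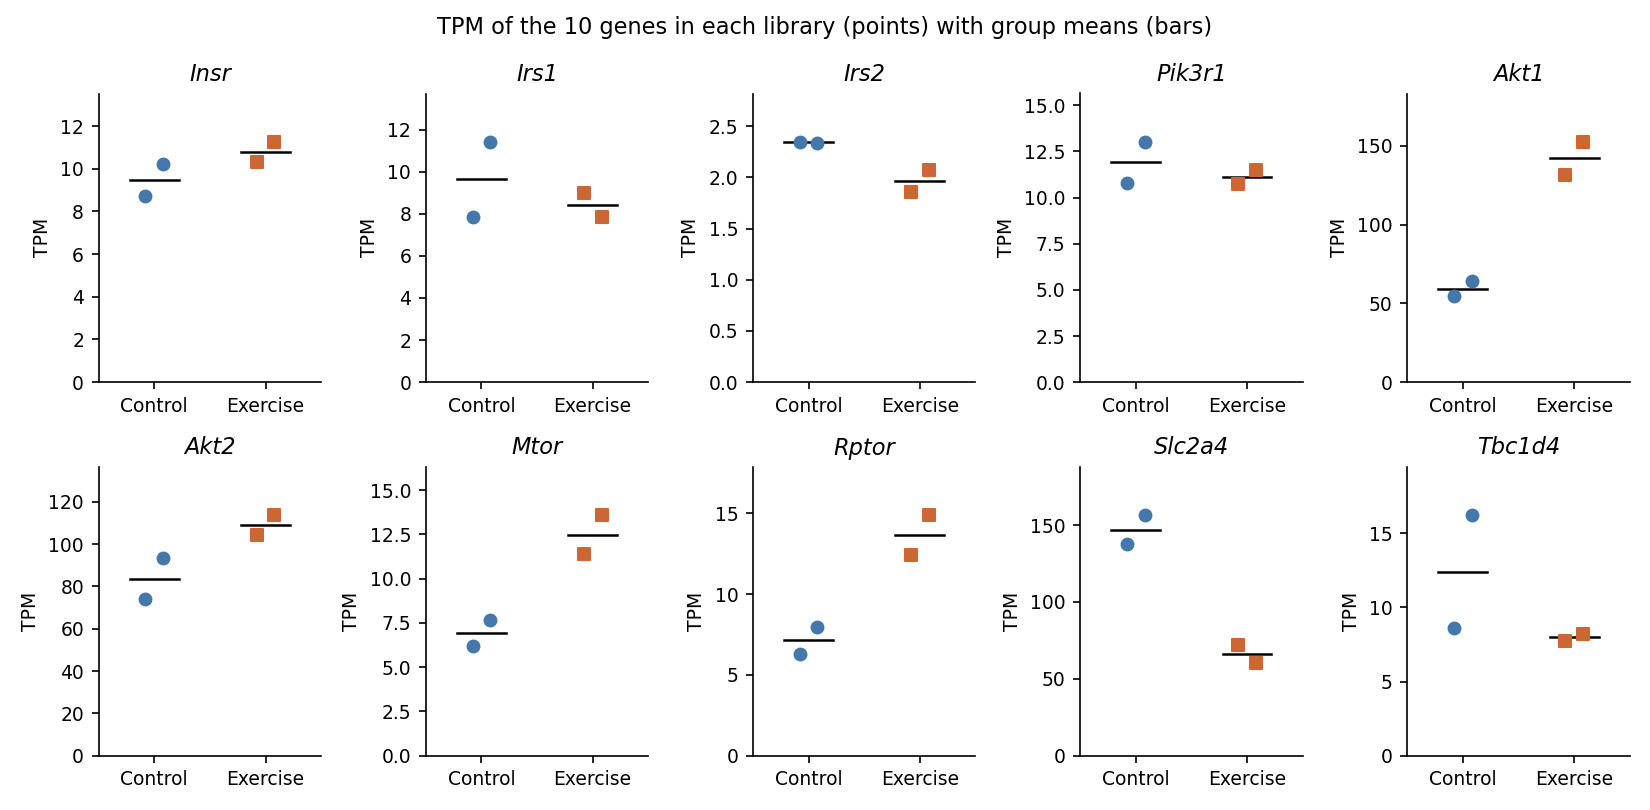
TPM (vertical axes, each from 0) of the 10 genes in the 2 control (circles) and 2 exercise libraries (squares), replicate 1 left and replicate 2 right, with bars at the group means. Akt1, Akt2, Mtor, Rptor and Insr had both exercise values above both control values, Slc2a4, Irs2 and Tbc1d4 had both below, and Irs1 and Pik3r1 overlapped.

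Of the 10 genes, 5 had both exercise libraries above both control libraries and 3 had both below. Among all tested genes these shares were 72.8% and 10.5%. The smallest two-sided p that exact permutation of so few libraries allows is 0.33, so the only test used was the limma fit across all genes.

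Insr (ENSMUSG00000005534) encodes the insulin receptor, the tyrosine kinase that starts the pathway. It was at 8.70 and 10.2 TPM without exercise, against 10.3 and 11.3 TPM with it. The groups did not overlap, but the second control and first exercise libraries nearly met, and the log2 fold change of 0.18 did not pass the test (95% confidence interval -0.18 to 0.54, adjusted p = 0.33). After median-of-ratios scaling the sign turned, to -0.40 (adjusted p = 0.042).

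Irs1 (ENSMUSG00000055980) encodes the main docking protein of the receptor in muscle. It was at 7.83 and 11.4 TPM in the sedentary mice, against 9.01 and 7.85 TPM in the runners, and both exercise values lay within the control range. The log2 fold change was -0.15 (95% confidence interval -0.63 to 0.32, adjusted p = 0.52). It was -0.72 after median-of-ratios scaling (adjusted p = 0.046).

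Irs2 (ENSMUSG00000038894) encodes the second docking protein, which is also the more variable of the pair with feeding in liver. It was at 2.35 and 2.34 TPM in control muscle and at 1.86 and 2.07 TPM in exercised muscle, so that the control libraries were nearly equal and both exercise libraries lay below them. The log2 fold change was -0.17 (95% confidence interval -0.56 to 0.21, adjusted p = 0.36) and -0.61 after median-of-ratios scaling (adjusted p = 0.030). The ratio of Irs1 to Irs2 TPM was 3.33 and 4.88 in control and 4.84 and 3.79 in exercise libraries. A ratio within a library does not change when that library is scaled by 1 factor, though quantile normalization can change it. Here the groups overlapped.

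The sequences before the start sites of the docking protein genes are shown because both genes were called lower after scaling. Those of Mtor and Rptor are shown because they rose together on TPM as deposited. Pik3r1 and Tbc1d4 were also called lower after scaling, and their sequences were searched but are not shown. RefSeq start sites on GRCm38.p6 were found for 8 of the 10 genes (13 start sites in all), and Insr and Slc2a4 had no entry. Each sequence is the 250 bases before the start, 5′ to 3′, on the strand of the gene. Capitals mark CACGTG (an E-box), TGTTTTG (the core of an insulin response element known from several insulin-regulated promoters) and CCAAT or its reverse complement ATTGG (the CCAAT box), searched on both strands. Irs1 lies at chr1:82291440-82291689 on the minus strand, Irs2 at chr8:11008930-11009179 on the minus strand, Mtor at chr4:148448332-148448581 and Rptor at chr11:119602655-119602904, both on the plus strand.
Irs1: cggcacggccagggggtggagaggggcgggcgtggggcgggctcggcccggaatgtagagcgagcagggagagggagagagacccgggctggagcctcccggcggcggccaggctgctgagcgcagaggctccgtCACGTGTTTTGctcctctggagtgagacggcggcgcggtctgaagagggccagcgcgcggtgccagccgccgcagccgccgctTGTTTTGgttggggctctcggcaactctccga
Irs2: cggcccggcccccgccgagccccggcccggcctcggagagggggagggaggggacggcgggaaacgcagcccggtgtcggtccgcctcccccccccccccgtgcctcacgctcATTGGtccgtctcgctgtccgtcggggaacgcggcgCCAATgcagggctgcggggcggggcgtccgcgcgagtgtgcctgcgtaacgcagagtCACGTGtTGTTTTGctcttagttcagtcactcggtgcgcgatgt
Mtor: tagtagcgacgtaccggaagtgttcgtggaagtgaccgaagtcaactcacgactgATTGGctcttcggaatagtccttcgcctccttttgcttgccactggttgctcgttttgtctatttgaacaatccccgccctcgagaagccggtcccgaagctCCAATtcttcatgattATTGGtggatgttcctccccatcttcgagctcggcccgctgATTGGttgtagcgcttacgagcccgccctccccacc
Rptor: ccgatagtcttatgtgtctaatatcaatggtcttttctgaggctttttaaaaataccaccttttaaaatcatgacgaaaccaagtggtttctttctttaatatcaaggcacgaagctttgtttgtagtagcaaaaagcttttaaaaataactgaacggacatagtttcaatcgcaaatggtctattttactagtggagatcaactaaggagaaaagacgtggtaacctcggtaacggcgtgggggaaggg

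Irs1 and Irs2 each held 1 CACGTG with a TGTTTTG just after it. In Irs1 the E-box spans bases 115 to 110 before the start and TGTTTTG spans 111 to 105, so that they share 2 letters, and a further TGTTTTG lies at 32 to 26. In Irs2 the E-box spans 44 to 39 and TGTTTTG 37 to 31, with 1 base between them. CACGTG was found in 6.02% of all 32851 windows of this length, TGTTTTG in 5.56% and both together in 0.295%. None of the other 11 windows of the members held either, those of Pik3r1 and Tbc1d4 included, which were also called lower after scaling. Mtor held 4 CCAAT boxes and Irs2 held 2, and 33.8% of all windows held at least 1. Rptor held none of these motifs in its window, nor GGGCGG (the GC box), which 32.7% of all windows held. GC content was 72.4% for Irs1, 72.8% for Irs2, 54.4% for Mtor and 37.6% for Rptor, against a median of 52.4%. These matches describe letters and not binding, and a level change and a motif were not tested against each other.

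Pik3r1 (ENSMUSG00000041417) encodes p85-alpha, the regulatory subunit that ties PI3K to the docking proteins. It was at 10.8 and 13.0 TPM without exercise, against 10.7 and 11.5 TPM with it, with the first libraries of both groups nearly equal. The log2 fold change was -0.09 (95% confidence interval -0.45 to 0.28, adjusted p = 0.63), and -0.67 after median-of-ratios scaling (adjusted p = 0.014). Of the 5 other PI3K subunits listed, 4 rose on TPM as deposited, beside 55.3% of all tested genes, and none after scaling, beside 10.6%. Pik3ca, the catalytic subunit p110-alpha, was at 8.86 and 11.9 TPM in the sedentary mice, against 16.01 and 13.84 TPM in the runners (log2 fold change 0.49, adjusted p = 0.049, and -0.09 after scaling). The ratio of Pik3r1 to Pik3ca was 1.22 and 1.10 in control and 0.671 and 0.831 in exercise libraries, and these groups did not overlap.

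Akt1 (ENSMUSG00000001729) encodes the AKT isoform best known for growth, and Akt2 (ENSMUSG00000004056) the isoform that in mouse knockouts is the one needed for normal glucose handling. Akt1 was at 54.8 and 63.9 TPM in control muscle and at 132 and 153 TPM in exercised muscle, a 2.39-fold higher mean. Both exercise libraries lay far above both control libraries. The log2 fold change of 1.25 (standard error 0.143, adjusted p = 0.0028) exceeded that of 96.1% of all tested genes. It was 0.62 after median-of-ratios scaling (adjusted p = 0.012), where the call was lost without exercise replicate 1 (adjusted p = 0.066) and without exercise replicate 2 (adjusted p = 0.092).

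Akt2 was at 73.9 and 93.4 TPM without exercise, against 104 and 114 TPM with it. The groups did not overlap, yet the log2 fold change of 0.39 did not pass the test (95% confidence interval 0.02 to 0.75, adjusted p = 0.063) and turned to -0.24 after median-of-ratios scaling (adjusted p = 0.14). On TPM as deposited, with control replicate 1 as the only control, it was 0.55. Within each library, the ratio of Akt2 to Akt1 was 1.35 and 1.46 in control and 0.793 and 0.745 in exercise libraries. The groups did not overlap.

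**Figure D3:**
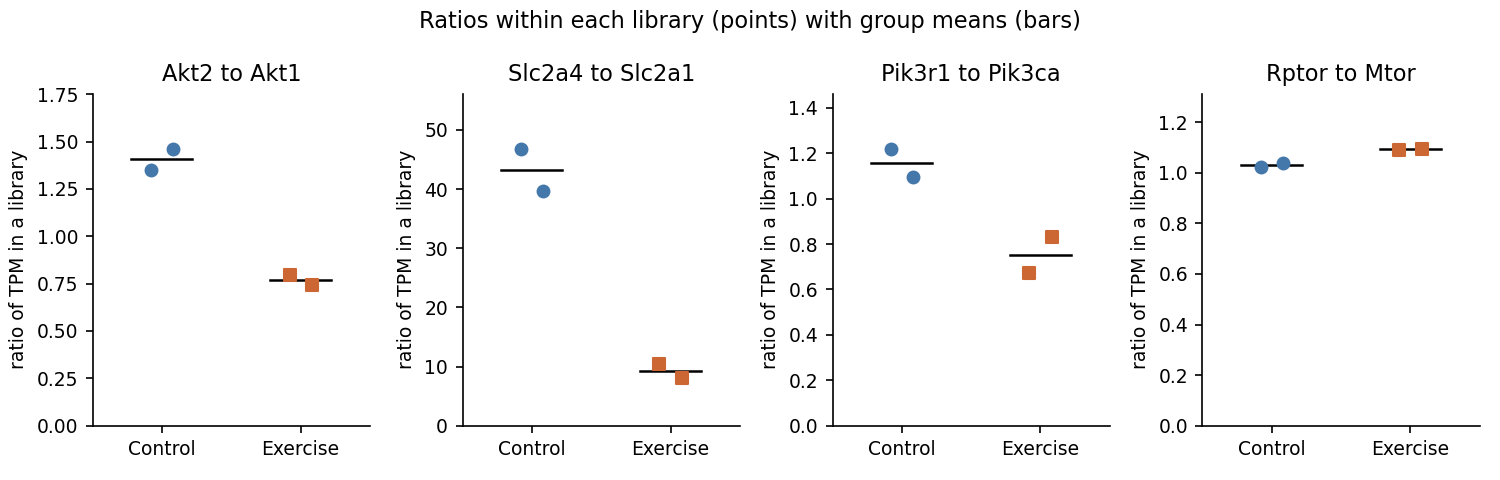
Ratio of the TPM of 2 genes within each library (vertical axes from 0) for 2 control (circles) and 2 exercise libraries (squares), with bars at the group means. The Akt2 to Akt1, Slc2a4 to Slc2a1 and Pik3r1 to Pik3ca ratios were lower in both exercise libraries, at means of 0.769, 9.25 and 0.751 against 1.41, 43.3 and 1.16. Rptor to Mtor differed little and was slightly higher in both exercise libraries.

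Mtor (ENSMUSG00000028991) encodes the kinase of both mTOR complexes. It was at 6.17 and 7.68 TPM in the sedentary mice, against 11.4 and 13.6 TPM in the runners, which did not overlap. Its log2 fold change was 0.77 (standard error 0.168, adjusted p = 0.0096) and 0.19 after median-of-ratios scaling (adjusted p = 0.26). Rptor (ENSMUSG00000025583) was at 6.31 and 7.98 TPM in control muscle and at 12.4 and 14.9 TPM in exercised muscle (log2 fold change 0.85, standard error 0.171, adjusted p = 0.0074), and 0.27 after scaling (adjusted p = 0.15). Without exercise replicate 2 neither passed on TPM as deposited (adjusted p = 0.079 for Mtor and 0.064 for Rptor), nor did either after quantile normalization (adjusted p = 0.17 and 0.098). Mtor also did not pass when no filter on low values was set (adjusted p = 0.051).

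Both genes kept nearly the same proportion in every library. The ratio of Rptor to Mtor was 1.02 and 1.04 in control and 1.09 and 1.09 in exercise libraries. This is a difference of 0.09 on the log2 scale, small but without overlap of the groups. Rictor, the defining subunit of mTOR complex 2, was at 2.78 and 2.85 TPM without exercise, against 5.78 and 5.38 TPM with it (log2 fold change 0.79, adjusted p = 0.0063, and 0.28 after scaling, adjusted p = 0.17). The ratio of Rptor to Rictor was 2.27 and 2.80 in control and 2.15 and 2.77 in exercise libraries, and overlapped.

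Slc2a4 (ENSMUSG00000018566) encodes GLUT4, the insulin-responsive glucose transporter of muscle and fat. It was at 138 and 157 TPM in the sedentary mice, against 72.1 and 60.3 TPM in the runners, a 2.22-fold lower mean. The lowest control value was well above the highest exercise value. The log2 fold change was -1.14 (standard error 0.144, adjusted p = 0.0029), and 1.94% of all tested genes had a lower one. After median-of-ratios scaling it was -1.77 (adjusted p = 0.0074). Its level stood far above that of the other glucose transporters listed, at 96.2 and 96.1% of the summed TPM of Slc2a1, Slc2a3, Slc2a4 and Slc2a12 in control and 89.7 and 87.3% in exercise libraries. Slc2a1, which encodes the insulin-independent transporter GLUT1, was at 2.94 and 3.94 TPM in control muscle and at 6.86 and 7.55 TPM in exercised muscle (log2 fold change 0.89, adjusted p = 0.0066, and 0.37 after scaling, adjusted p = 0.11). The ratio of Slc2a4 to Slc2a1 was 46.8 and 39.7 in control and 10.5 and 7.99 in exercise libraries. GLUT1 RNA is present in many cell types, so this ratio is one of the whole tissue.

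Tbc1d4 (ENSMUSG00000033083) encodes AS160, the AKT substrate that holds GLUT4 vesicles inside the cell. It was at 8.59 and 16.2 TPM without exercise, against 7.71 and 8.23 TPM with it. Control replicate 2 was far above the other 3 libraries, and control replicate 1 barely exceeded exercise replicate 2. The log2 fold change was -0.52 (95% confidence interval -1.17 to 0.13, adjusted p = 0.14) and -1.09 after median-of-ratios scaling (adjusted p = 0.040). On TPM as deposited, it was -0.94 with control replicate 2 as the only control and -0.10 with control replicate 1. Tbc1d1, its paralog and the more abundant of the pair here, was at 46.5 and 43.3 TPM in the sedentary mice, against 35.8 and 37.9 TPM in the runners (log2 fold change -0.28, adjusted p = 0.094, and -0.90 after scaling, adjusted p = 0.0096). The ratio of Tbc1d4 to Tbc1d1 was 0.185 and 0.375 in control and 0.215 and 0.217 in exercise libraries, and overlapped.

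Several features of the libraries moved with these results. The marker counts that follow stand beside 55.3% of all tested genes called higher and 6.19% called lower. After median-of-ratios scaling these shares were 10.6 and 16.8%. The markers of adipocytes, which also express Slc2a4, Irs1 and Tbc1d4, fell in 5 of 7 tested and rose in none, and their summed TPM was 369 and 750 in control and 266 and 319 in exercise libraries. Most of that sum was Fabp4, also expressed in endothelium, at 307 and 475 TPM in control against 264 and 306 TPM in exercise libraries. The adipocyte gene Cfd went from 38.9 and 174 TPM to 0.80 and 8.24 TPM. Adipoq, which encodes adiponectin, was at 8.06 and 38.4 TPM in control muscle and at 0.21 and 1.43 TPM in exercised muscle. In the same 2 control libraries Slc2a4 was at 138 and 157 TPM and Irs1 at 7.83 and 11.4 TPM. Tbc1d4 was at 8.59 and 16.2 TPM there. All 3 were higher in the library with more Adipoq, and so were Insr, Pik3r1, Akt1, Akt2, Mtor and Rptor. Irs2 was nearly equal in both, at 2.35 and 2.34 TPM. Lep and Cidec were at 0 in exercise replicate 1. Of 9 fast fibre markers 7 fell and none rose, with summed TPM of 107180 and 114560 in control and 82492 and 72925 in exercise libraries. Of 8 slow fibre markers 6 rose, where 55.3% of all tested genes did, and none fell. Their sums were 3170 and 4189 in control and 8364 and 13373 in exercise libraries. The exercise libraries differed widely in some of them, with Myl2 at 8.74 TPM in replicate 1 and 1872 TPM in replicate 2 and Myl3 at 0.81 and 465 TPM, both below the control libraries in replicate 1. Of 4 macrophage markers tested 1 fell (Lyz2), and of 6 endothelial markers none passed. After scaling 5 adipocyte, 7 fast fibre, 1 macrophage and 1 endothelial marker (Kdr, adjusted p = 0.037) fell, and no marker of these lists rose. Of the slow fibre markers 5 rose after scaling and none fell. In whole muscle, fewer cells of a type and less RNA per cell cannot be told apart, and the part of these cell types in the results was not tested.

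A wider list of 60 other genes of the pathway was measured to set the 10 in context, and 58 passed the filter on low values (Slc2a3 and Trib3 did not). Of these 36 were called higher and 2 lower, beside 55.3 and 6.19% of all tested genes, with a median log2 fold change of 0.52, close to the 0.53 of all tested genes. After median-of-ratios scaling 5 were higher and 7 lower, beside 10.6 and 16.8% of all tested genes, with a median of -0.05. Without exercise replicate 2, fewer of these were called higher on TPM as deposited than in the full fit, and so were fewer of all tested genes.

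**Figure D4:**
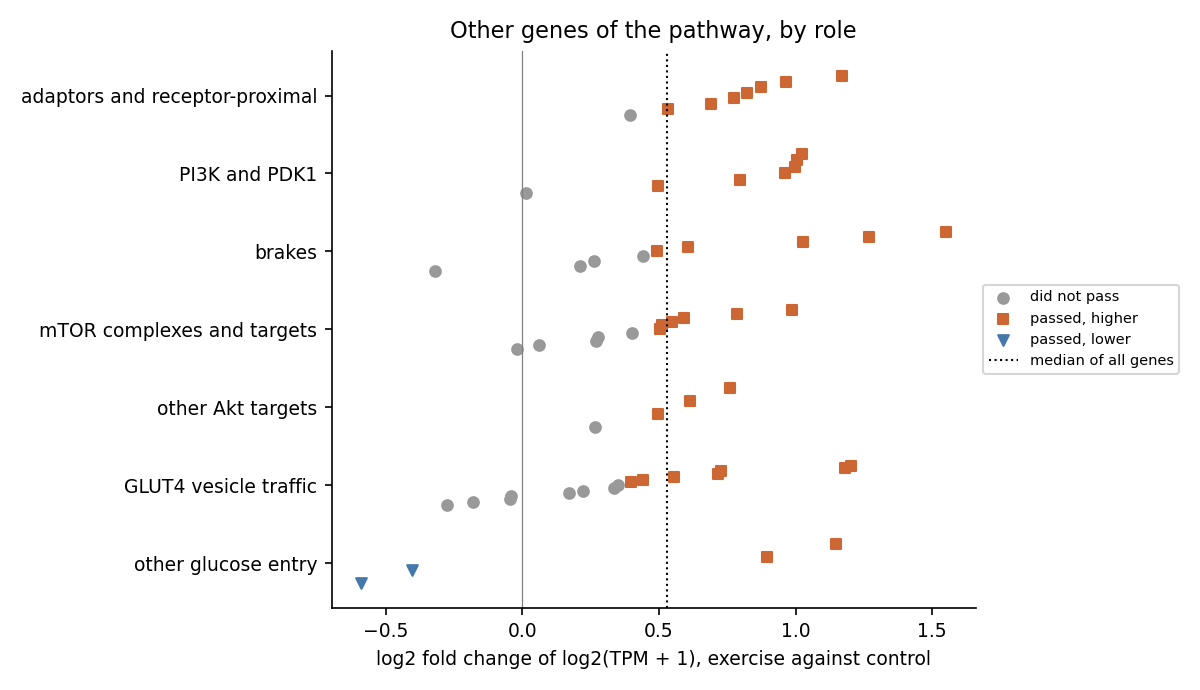
Log2 fold change (exercise against control, of log2(TPM + 1), TPM as deposited) of the 58 other pathway genes tested, by role; squares passed the test as higher, triangles as lower and circles did not pass, and the dotted line is the median of all genes tested, at 0.53. Hk2 and Slc2a12, in the lowest row, were the only genes called lower, and Ptpn1, at 1.55, was the highest.

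Among the adaptors and receptor-proximal genes 7 of 8 rose and none fell (55.3 and 6.19% of all tested genes), and none passed after scaling (10.6 and 16.8%). Igf1r, the receptor of insulin-like growth factor 1, had a log2 fold change of 0.87 (0.31 after scaling) and the adaptor Shc1 of 0.82 (0.22). Grb2, the adaptor that leads to RAS and the most abundant of this role, had 1.17 (0.54). These stand beside Insr, Irs1 and Irs2, none of which was called on TPM as deposited. Of 7 genes listed with PI3K and the kinases after it, 6 rose (55.3% of all tested genes) and none passed after scaling (10.6% higher, 16.8% lower). Among them was Pdpk1, the kinase that activates AKT, at 10.3 and 13.2 TPM in control muscle and at 23.8 and 25.2 TPM in exercised muscle (log2 fold change 1.01, adjusted p = 0.0040, and 0.41 after scaling, adjusted p = 0.056).

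Brakes on insulin signalling included the largest rises of the list. Ptpn1, the phosphatase PTP1B that dephosphorylates the receptor, was at 5.41 and 5.43 TPM without exercise, against 19.5 and 16.3 TPM with it. Both exercise libraries lay far above the control libraries (log2 fold change 1.55, adjusted p = 0.0028, and 0.98 after scaling, adjusted p = 0.015). Inppl1, the lipid phosphatase SHIP2, was at 79.1 and 93.6 TPM in the sedentary mice, against 201 and 217 TPM in the runners (log2 fold change 1.27, and 0.64 after scaling, adjusted p = 0.011). Phlpp1, a phosphatase of AKT named after its values were seen, had 1.03, and 0.49 after scaling (adjusted p = 0.038). Of the 9 brakes tested 5 rose on TPM as deposited, about the 55.3% of all tested genes, and 3 after scaling, beside 10.6%. None fell under either, beside 6.19 and 16.8%.

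Of 11 genes of the mTOR complexes and their targets 6 rose, about the 55.3% of all tested genes. After scaling none rose, beside 10.6%, and 3 fell, beside 16.8% (Akt1s1, Rheb and Eif4ebp1, Akt1s1 and Eif4ebp1 named after their values were seen). Rps6kb1, the S6 kinase, had a log2 fold change of 0.99, and 0.38 after scaling (adjusted p = 0.051). Rheb, the GTPase that activates mTOR complex 1 and the most abundant of this role, had 0.27 (adjusted p = 0.11) and -0.36 after scaling (adjusted p = 0.030). Of 4 other AKT targets 3 rose (55.3% of all tested genes) and none after scaling (10.6%). Gsk3b, a kinase that restrains glycogen synthesis, had 0.76 (0.17 after scaling), Foxo1, a transcription factor that AKT keeps out of the nucleus, 0.61 (0.05), and Gsk3a, the most abundant, 0.26 (-0.36).

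Of 15 genes of GLUT4 vesicle traffic 7 rose, below the 55.3% of all tested genes, and none fell. After scaling 1 rose, beside 10.6%, and 2 fell, beside 16.8% (Tbc1d1 and Rab10, the second named after its values were seen). Myo1c, a motor protein known from adipocytes to help GLUT4 vesicles reach the membrane, was at 36.7 and 44.2 TPM in control muscle and at 86.7 and 98.8 TPM in exercised muscle. The libraries of the groups were well apart (log2 fold change 1.18, adjusted p = 0.0029, and 0.55 after scaling, adjusted p = 0.016). Rab14 had 0.73 (0.10 after scaling), and Rac1, a GTPase of actin remodelling and the most abundant of this role, had 0.34 (adjusted p = 0.065) and -0.30 after scaling.

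Hexokinases trap the glucose that has entered by phosphorylation. Hk2, the insulin-regulated isoform of muscle, was at 121 and 101 TPM without exercise, against 78.5 and 88.3 TPM with it. Its exercise values lay below both control values (log2 fold change -0.40, adjusted p = 0.046, and -1.03 after scaling, adjusted p = 0.011). Hk1, the isoform found in most tissues, was at 10.3 and 11.7 TPM in the sedentary mice, against 23.1 and 28.2 TPM in the runners (log2 fold change 1.15, adjusted p = 0.0031, and 0.55 after scaling, adjusted p = 0.021). Slc2a12 (GLUT12), named with its values known, was at 2.09 and 2.02 TPM in control muscle and at 1.09 and 0.97 TPM in exercised muscle (log2 fold change -0.59, adjusted p = 0.020, and -0.96 after scaling). On TPM as deposited neither Hk2 nor Slc2a12 was called lower without control replicate 1, without exercise replicate 1 or without exercise replicate 2.

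The annotation in the deposited table gave a broader set, the KEGG insulin signaling pathway, which also holds enzymes of glycogen and lipid metabolism and was counted after the values of the 10 genes were known. It named 8 of the 10 genes. Of its 107 other genes that were tested, 56 rose and 16 fell, beside 55.3 and 6.19% of all genes. Under median-of-ratios scaling 11 rose and 35 fell, beside 10.6 and 16.8%.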

How the data were processed

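RNA of TA muscle was sequenced from 2 control and 2 exercise libraries. The authors deposited 1 table of TPM for 57180 genes, made per the submitters' processing notes with fastp, HISAT2 and StringTie on GRCm39 (versions not given in the sources used here). TPM keeps no read counts, so the depth is unknown and the count test named in the study, DEGseq, was not run. As all libraries share 1 total, TPM of most genes rises where the most abundant transcripts decline.

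The 13288 genes that reached 1 TPM in 2 or more libraries were fitted as log2(TPM + 1) with limma 3.58.1 (R 4.3.3, eBayes with a trend), with Benjamini-Hochberg adjustment over all of them and a threshold of 0.05. Alternatives were a pseudocount of 0.1, omitting the filter, a minimum mean of 5 TPM, median-of-ratios scaling, quantile normalization, rescaling without the 50 highest genes, no trend, the replicate number as a block and each library left out. Same-numbered libraries did not deviate together (r = -0.05 over genes). The fit was tested on simulated data. The members and lists were chosen with earlier results of these data known. Named besides the 10 genes were, per role, the 2 genes of smallest p and the one of highest mean. Promoter windows came from RefSeq. Python 3.11.15 and matplotlib 3.10.9 were used. One gene of the pathway list is counted but not reported here by name.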

Additional observations from a re-analysis of the deposited data

How the results depend on the processing

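With 2 libraries per group and no depth, precision was set by the spread of these libraries, and each scaling assumes a different fixed quantity. Of the 10 genes, 3 were called higher and 1 lower on TPM as deposited. Median-of-ratios scaling gave 1 and 6, quantile values 1 and 4, and removal of the 50 highest genes 3 and 2. Of all tested genes, 55.3% were called higher and 6.19% lower on TPM as deposited. After median-of-ratios scaling the shares were 10.6 and 16.8%, and after quantile normalization 16.4 and 13.2%. Without the 50 highest genes they were 25.9 and 11.4%. Leaving out exercise replicate 2 gave fewer calls of higher among the 10, and also among all tested genes. Leaving out control replicate 1 took Tbc1d4 from -0.52 to -0.94. After median-of-ratios scaling, leaving out any library (chosen after seeing the data) gave fewer calls of lower, with no share of all genes counted. Of the other pathway genes, 36 were higher and 2 lower, and the same settings gave 5 and 7, 11 and 6, and 19 and 5. Without a filter the numbers were 23 and 0. With a mean of at least 5 TPM, without the variance trend and with the replicate block, 1 was lower. Leaving out each library gave 14 to 38 higher and 0 to 2 lower. Insr turned to -0.40, -0.35 and -0.20 under the median-of-ratios, quantile and 50-highest settings, and Akt2 to -0.24 under the first and -0.012 under the last. Without each library, Irs1 ranged from -0.40 to 0.092 and Pik3r1 from -0.21 to 0.038, both turning without control replicate 2. The replicate block made Akt2 pass (0.39, adjusted p = 0.029) and changed no other call of the 10. Irs2 fell under the filter at a mean of 5 TPM. The scalings differ by construction in what they hold fixed. The cause of the other changes was not tested.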
